A study of Bos taurus with 8 samples.

Results

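The 10 genes of glycolysis and lactate dehydrogenase followed here were chosen by name and measured in rumen papillae of lactating cows on a low-concentrate and a high-concentrate diet. They were LDHA, LDHB, HK1, HK2, PFKL, ALDOA, TPI1, PGK1, ENO1 and PGAM1. Of the 10 genes, 8 had a probe that the array's RefSeq accession linked to the gene, out of 7788 genes named in this way on the whole array. HK2 and ENO1 had no probe linked by accession and were not analysed here. Each of the 8 genes had 1 probe, printed in 2 spots per array.

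The study asked how concentrate feeding changes gene expression in the rumen epithelium. The animals were 4 ruminally cannulated Holstein cows, 84 ± 25 days in milk when the trial began, and each cow received both diets in a crossover of 2 periods. The LC diet held 40% concentrate and the HC diet 70% (dry matter basis). In period 1, cows 1 and 2 were on LC while cows 3 and 4 were on HC, and in period 2 the diets were exchanged. Papillae of the ventral sac were taken on day 21 of a period, 4 h after feeding, and the RNA of a sample went on 1 bovine oligonucleotide array labelled in 1 colour. All cows had been on a low-concentrate ration before the trial, and no animal without concentrate was sampled. The biopsy is whole papilla, so stroma, vessels and muscle come with the epithelium, and fewer cells of a type and less RNA per cell cannot be told apart.

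Glycolysis breaks glucose down to pyruvate in the cytosol and yields ATP without oxygen. Hexokinase traps glucose as glucose 6-phosphate, phosphofructokinase commits the sugar to breakdown, aldolase and triosephosphate isomerase turn it into triose phosphates, and phosphoglycerate kinase, phosphoglycerate mutase and enolase belong to the lower arm of the pathway. Lactate dehydrogenase interconverts pyruvate and lactate as a tetramer of A and B subunits, encoded by LDHA and LDHB. In the rumen, microbes ferment most dietary sugar to short-chain fatty acids before it can be absorbed, and the epithelium burns butyrate and makes ketone bodies. The tissue also uses glucose and releases lactate.

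The signal over background was high for these genes, and the scanner software's own test put all 8 well above background on every array. Over the whole array, 76.9 to 81.2% of 21475 probes passed this test per array, and 16030 did so on all 8 arrays. The LC array of cow 3 had the lowest share of such probes and the lowest median intensity (92.1, against 100.8 to 132 on the other arrays). The tissue label was checked against marker genes. Of 17 listed markers of squamous epithelium, 11 had a probe and 10 passed this test on every array, among them the keratins KRT14, KRT15 and KRT6A and the desmosome genes DSP and DSG1. TP63, a transcription factor of basal cells, passed it on none. Markers of stroma (9 of 9 with a probe) and smooth muscle (8 of 8) also passed on every array, as did 5 of 8 leukocyte markers, while the leukocyte marker ITGAM passed on 0 arrays. The log2 of the summed signal of the epithelial markers was 19.48 to 19.87 on LC and 19.60 to 19.86 on HC. That of the stromal markers was 14.95 to 15.34 on LC and 15.08 to 15.45 on HC, that of the smooth muscle markers 14.25 to 14.62 and 14.15 to 14.74, and that of the leukocyte markers 12.91 to 13.18 and 12.90 to 13.28. The leukocyte sum was mostly CD4, whose log2 signal was 12.63 to 12.99, so it says little of the other leukocyte markers. CD4 had a fitted diet value of -0.06. Of the 8 leukocyte markers, 7 were fitted higher on HC and 1 lower (median 0.15), where 50% of all probes were higher. The ranges of the sums overlapped between diets in each list, and limma gave 0 markers an unadjusted p under 0.05 for diet. With the cow as a random block, 2 of the 41 markers with a probe had one, DCN of the stroma (log2 fold change -0.20, p of 0.0402) and CD3E of T cells (0.30, p of 0.0438), where 7.35% of all probes did and the adjusted p was 0.677 for both. The authors' table of normalized values raised a question about names. Its columns of cows 1 and 2 each followed the scanner array of the other of these cows, on both diets (Pearson r across 21475 probes of 0.999, against 0.994 with the array that bears the column's own name). Both cows had the same diet in each period, so the names of cows 1 and 2 are uncertain while the diet, the period and the pairing are not affected. Cows are named here by the labels of the scanner output.

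None of the 8 genes differed between diets beyond the spread of the arrays. Of the 8 genes, 0 passed a fold change of at least 1.5 with an unadjusted p under 0.05 in limma, where 0.922% of all probes passed for diet, and 0 had an unadjusted p under 0.05, against 3.65% of all probes. A linear model without moderation of the variance also gave 0 of 8 under 0.05. Fitted log2 fold changes (HC minus LC) lay between -0.20 for LDHB and 0.08 for ALDOA, with 5 genes higher and 3 lower on HC, where 50% of all probes were higher. Their median was 0.03, beside -0.00004 over all probes. The unadjusted p ranged from 0.321 to 0.949, and the Benjamini-Hochberg adjusted p over all probes was 1.00 for each gene. The arrays of the diets overlapped in 8 of 8 genes, and over all probes they did not overlap in 1.6%. Values below are normalized log2 signals, in the order of cows 1 to 4. Fold changes carry their standard error (SE) and the p of limma. The exact test is a two-sided permutation test over 4 LC and 4 HC arrays, whose smallest possible p is 0.0286. Neither uses the pairing by cow unless a cow block is named, so differences in level between cows enter both p values.

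The upper arm of glycolysis was represented by HK1 and PFKL. HK1 (NM_001012668) encodes the hexokinase found in most tissues. On LC its log2 signal was 13.86, 13.89, 13.48 and 13.74, and on HC it was 13.74, 13.98, 13.73 and 13.59. The LC array of cow 3 was the lowest and the HC array of cow 2 the highest, and the diets overlapped. Cows 2 and 3 were higher on HC and cows 1 and 4 lower. The log2 fold change was 0.02 (SE 0.11, limma p = 0.864, exact p = 0.971), with a mean of 13.74 ± 0.19 (SD, n = 4) on LC and 13.76 ± 0.16 (SD, n = 4) on HC. PFKL (NM_001080244), the liver-type subunit of phosphofructokinase, had the same mean on both diets within 0.01. Its log2 signal was 12.72, 13.03, 12.69 and 12.74 on LC and 12.78, 12.89, 12.69 and 12.80 on HC. Cow 2 gave the highest array on each diet, and the other 3 cows lay within 12.69 to 12.80. The log2 fold change was -0.01 (SE 0.11, limma p = 0.949, exact p = 0.971).

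ALDOA and TPI1 encode the enzymes that split the sugar and interconvert the triose phosphates. For ALDOA (NM_001101915), the log2 signal was 16.55, 16.43, 16.08 and 16.44 on LC and 16.53, 16.54, 16.39 and 16.37 on HC. The LC array of cow 3 stood below the other 7, which lay within 16.37 to 16.55. ALDOA had the highest fitted fold change of the 8 genes, a log2 value of 0.08 (SE 0.11, limma p = 0.480, exact p = 0.629), with 2 of 4 cows higher on HC. TPI1 (NM_001013589) varied least of the 8 genes over the arrays, with a range of 0.30. Its log2 signal was 15.57, 15.40, 15.54 and 15.70 on LC and 15.67, 15.65, 15.55 and 15.61 on HC. HC minus LC was 0.25 in cow 2 and lay within -0.09 to 0.10 in the other 3 cows. The log2 fold change was 0.07 (SE 0.09, limma p = 0.493, exact p = 0.400).

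PGK1 and PGAM1 belong to the lower arm. PGK1 (NM_001034299) encodes the kinase that makes ATP from 1,3-bisphosphoglycerate. Its log2 signal was 14.54, 14.39, 13.99 and 14.54 on LC and 14.46, 14.48, 14.28 and 14.40 on HC. The lowest array was again that of cow 3 on LC, and the other 7 lay within 14.28 to 14.54. PGK1 had a log2 fold change of 0.04 (SE 0.14, limma p = 0.778, exact p = 0.857). PGAM1 (NM_001034054), which moves the phosphate from carbon 3 to carbon 2 of phosphoglycerate, was the one gene of the 8 higher on HC in 4 of 4 cows. Over all probes, 6% were so. Its log2 signal was 13.04, 12.88, 12.74 and 13.22 on LC and 13.07, 13.09, 12.80 and 13.23 on HC, so HC minus LC was 0.02, 0.21, 0.06 and 0.01 within the cows. The log2 fold change of 0.08 (SE 0.15, limma p = 0.641, exact p = 0.600) was smaller than the SD within a diet, 0.21 on LC and 0.18 on HC. That SD holds the differences in level between cows. With the cow as a fixed block beside period, the limma p of PGAM1 was 0.431.

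Both lactate dehydrogenase subunits had fitted values below 0. LDHA (NM_174099), the A subunit that prevails in skeletal muscle, had log2 signals of 15.75, 15.40, 15.30 and 15.59 on LC and 15.58, 15.52, 15.18 and 15.44 on HC. It was lower on HC in cows 1, 3 and 4, with log2 differences of -0.17, -0.12 and -0.14, and higher in cow 2. LDHA had a log2 fold change of -0.08 (SE 0.13, limma p = 0.572, exact p = 0.571). LDHB (NM_174100), the B subunit that prevails in heart, had log2 signals of 13.11, 12.74, 13.11 and 13.32 on LC and 13.02, 12.35, 12.95 and 13.18 on HC. Cow 2 gave the lowest array on each diet, and the arrays of the other 3 cows lay within 12.95 to 13.32. LDHB was lower on HC in 4 of 4 cows, with differences of -0.09, -0.39, -0.16 and -0.15, as were 4.98% of all probes and 4.88% of those well above background throughout. It had the lowest fitted log2 fold change of the 8 genes, -0.20 (SE 0.18, limma p = 0.321, exact p = 0.429). The LC mean was 13.07 ± 0.24 (SD, n = 4) and the HC mean 12.87 ± 0.36 (SD, n = 4). In the fit without cow, the log2 fold change of LDHB depended on single HC arrays: it was -0.029 when that of cow 2 was left out and -0.36 when that of cow 1 was. These runs kept the LC array of the same cow, so the level of that cow enters the change. With the cow as a fixed block beside period, the limma p over all arrays was 0.103.

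**Figure D1:**
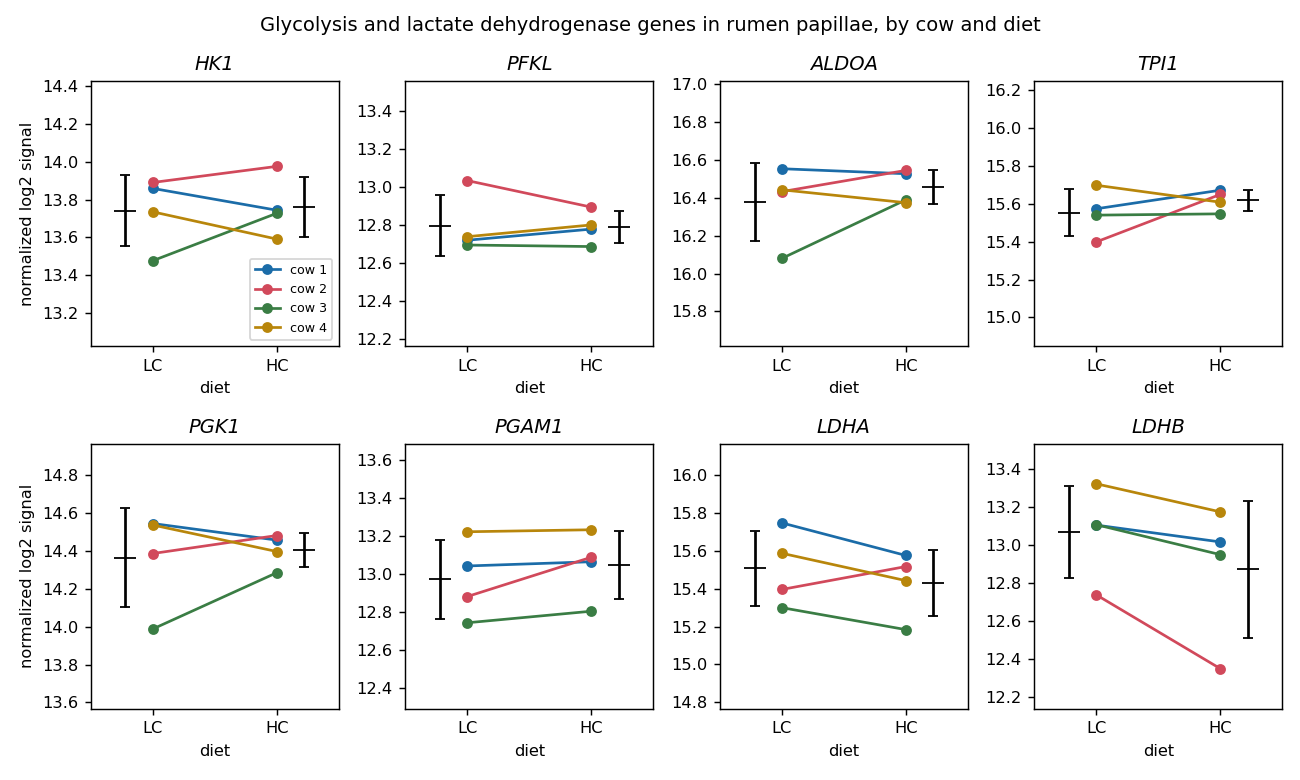
Normalized log2 signal (y axis) of the 8 genes on the LC and HC diets (x axis). Each line is 1 cow, and the bars beside the lines give the mean and SD of the 4 arrays of a diet; all panels span the same number of log2 units. LDHB is lower on HC in 4 of 4 cows and PGAM1 higher in 4 of 4, and the arrays of the diets overlap in 8 of 8 genes.

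The intervals limit how large a diet difference these arrays leave possible in the fit without cow. Differences in level between cows enter their width, and no interval with the cow as a block is given here. For 7 of the 8 genes, the 95% interval of the fold change lay inside 1.5-fold in either direction, as it did for 68.1% of all probes and for 79% of the 16030 probes well above background throughout. The exception was LDHB, whose interval on the log2 scale ran from -0.64 to 0.25, that is, from 1.56-fold lower to 1.19-fold higher on HC. For LDHA the log2 interval was -0.39 to 0.24 and for PGAM1 -0.30 to 0.45, and the narrowest was that of TPI1, -0.16 to 0.29. The median SD within a diet was 0.18 for the 8 genes and 0.21 over those 16030 probes. The median SE of the diet effect was 0.12 and 0.13, respectively. The SD between the 2 spots of a probe was 0.04 to 0.11 for the 8 genes.

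**Figure D2:**
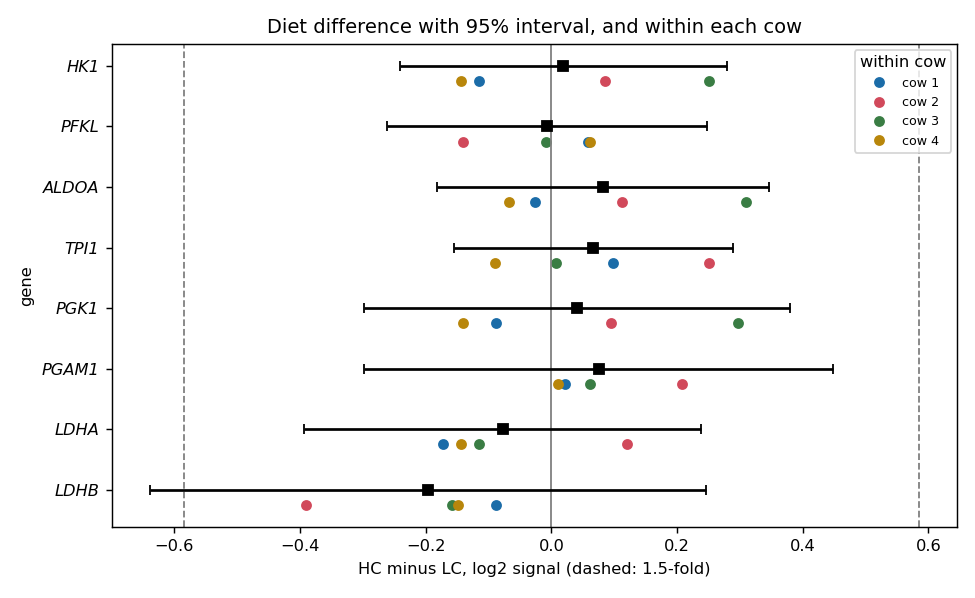
Diet difference of the 8 genes as log2 HC minus LC (x axis). Squares are limma estimates with 95% intervals from the fit without cow. Coloured points are the differences within each cow, and dashed lines mark 1.5-fold. Each interval crosses 0, and the interval of LDHB is the one that reaches past 1.5-fold.

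The balance of the LDHA and LDHB probes was compared within an array, where a difference shows unequal change of the probes and not the ratio of the transcripts. LDHA minus LDHB on the log2 scale was 2.64, 2.66, 2.19 and 2.26 on LC (mean 2.44 ± 0.25, SD, n = 4) and 2.56, 3.17, 2.23 and 2.27 on HC (mean 2.56 ± 0.43, SD, n = 4). The diets overlapped, and the difference of 0.12 was within the spread (exact permutation p = 0.771). HC minus LC of this balance was 0.51 in cow 2 and -0.08, 0.04 and 0.00 in cows 1, 3 and 4. The arrays of cows 1 and 2 lay within 2.56 to 3.17 and those of cows 3 and 4 within 2.19 to 2.27. This description was made after the values were seen and carries no test. In this crossover these pairs of cows also had the diets in opposite order. Cow, order of diets and the interaction of diet with period cannot be told apart here.

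The spread between cows was described beside that between diets, without a test, since a range over 4 cows is wider by construction than a mean difference. In 8 of 8 genes, the range of the 4 cow means (0.13 to 0.71 on the log2 scale) exceeded the mean size of the difference within a cow (0.07 to 0.20). LDHB had the widest range, with cow means of 13.06, 12.54, 13.03 and 13.25. PGAM1 followed with 13.05, 12.99, 12.77 and 13.23, where cow 3 was lowest and cow 4 highest on both diets. LDHA was highest in cow 1 (mean 15.66) and lowest in cow 3 (15.24). The LC array of cow 3 was the lowest of all 8 for HK1, ALDOA, PGK1 and PGAM1. That array also had the lowest mean log2 signal over the 11 epithelial markers, 12.78 against 12.83 to 13.30 on the others, and the lowest median intensity. This mean includes TP63, above background on 0 arrays, and DSG1, which alone had a range of 3.79. Single markers differed: KRT14, KRT6A, DSP, PKP1 and IVL were lowest on that array, and KRT15 was highest there (17.04). The part of the marker level and of the intensity in the low values was not tested.

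Period and interaction were fitted beside diet. Each period was hybridized on a slide of its own and scanned together, so period, slide and scan cannot be told apart. Of the 8 genes, 0 passed both thresholds for period, where 3.86% of all probes did, 0 had an unadjusted p under 0.05 (12.3% of all probes) and 0 an adjusted p under 0.05 (0.0419%). Period 2 minus period 1 ranged from -0.04 for LDHB to 0.11 for TPI1 on the log2 scale (limma p from 0.281 to 0.821). The interaction is the diet difference in period 2 minus that in period 1, and in this crossover it also sets cows 1 and 2 against cows 3 and 4. Here 0 of 8 genes passed both thresholds, where 8.58% of all probes did, 0 had an unadjusted p under 0.05 (10.2% of all probes) and 0 an adjusted p under 0.05 (0.0373%). A model without moderation also gave 0 under 0.05 for either term, and moderation with a trend on the signal gave 1 for the interaction, HK1 (unadjusted p of 0.0394, where 10.8% of all probes had one under 0.05).

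The sign of the fitted diet difference changed between periods in 6 of the 8 genes, with different cows on the diets within a period. The share of all probes that changed sign was not counted, so this number is a description only. LDHA was -0.26 in period 1 and 0.10 in period 2, HK1 -0.22 and 0.25, and ALDOA -0.11 and 0.27. LDHB went the other way, from 0.14 to -0.53. TPI1 (0.09 and 0.04) and PGAM1 (0.06 and 0.09) kept their sign. The interaction of HK1 was 0.47 (SE 0.22) with an unadjusted limma p of 0.0705 (adjusted p = 0.523), and that of LDHB was -0.68 (SE 0.36) with an unadjusted p of 0.112 (adjusted p = 0.579). On the mean of each cow, these had limma p of 0.111 and 0.199. HK1 was 13.74 to 13.98 on the arrays of cows 1 and 2 and 13.48 to 13.74 on those of cows 3 and 4. Without the LC array of cow 4, HK1 (0.60) and PGK1 (0.61) passed both thresholds for the interaction, and without the HC array of cow 1 LDHB did (-1.01). The limma p adjusted over all probes was 0.311 or higher for each. With all arrays 8.58% of all probes passed both thresholds, and the share in these runs was not counted. Of the 8 smooth muscle markers, 2 had an unadjusted interaction p under 0.05 in limma (ACTG2, 0.0407, and MYL9, 0.0209), as did 10.2% of all probes. The stromal marker FN1 had one too (0.0431). Among the muscle markers, TAGLN (0.01), MYH11 (0.09) and LMOD1 (-0.07) had interaction values near 0. The summed normalized signal of the 8 markers was 22147 to 27319 in cows 1 and 2 and 18240 to 22345 in cows 3 and 4, ranges that overlap. The part of muscle in the values of HK1 was not tested.

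The 8 genes were also compared with each other over the 8 arrays, as a description without a test, since the arrays are 2 from each of 4 cows and share the normalization. Pearson r was above 0 in 22 of 28 pairs, with a median of 0.31, where the median over all pairs of the 16030 probes was 0.00. ALDOA and PGK1 were most alike (r = 0.93), followed by HK1 and ALDOA (0.83), PGK1 and PGAM1 (0.76), LDHA and PGK1 (0.75) and HK1 and PGK1 (0.71). ALDOA, PGK1 and HK1 share the low LC array of cow 3. LDHB stood apart. Its r with the other 7 genes ranged from -0.68 with HK1 to 0.22 with TPI1, was below 0 in 4 of 7 pairs and was 0.13 with LDHA. The 21 pairs without LDHB had a median of 0.46. PFKL also had pairs below 0, with LDHB (-0.63) and TPI1 (-0.46).

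**Figure D3:**
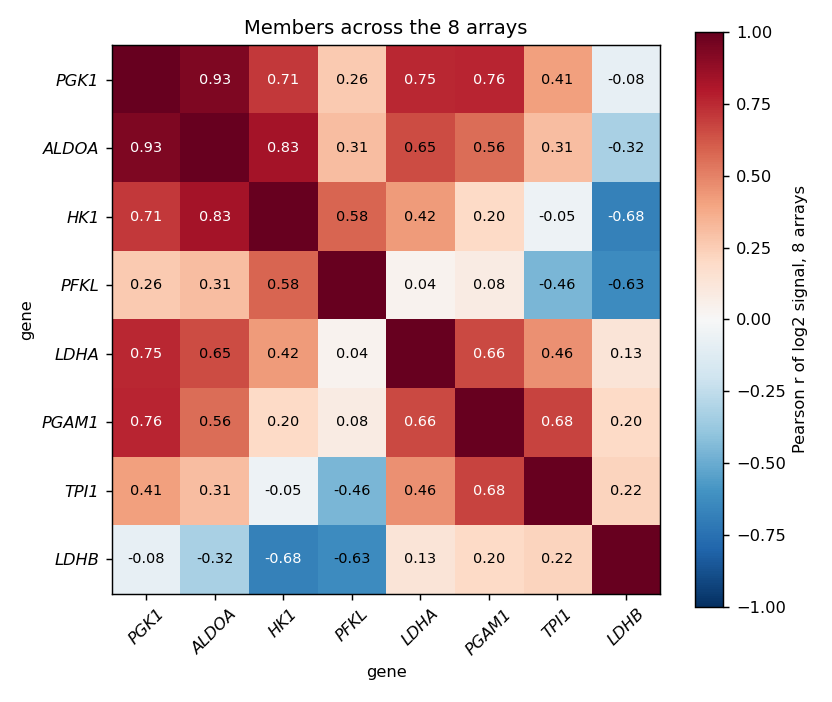
Pearson r of the normalized log2 signal between the 8 genes (both axes) over the 8 arrays, coloured from -1 to 1. PGK1, ALDOA and HK1 form the block of highest values in the upper left, and the line of LDHB at the bottom holds values from -0.68 to 0.22.

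Among 6461 named genes that passed the background test on every array, those with the highest r to LDHA included ELOVL1 (0.97), an elongase of long-chain fatty acids, and ACVR1 (0.96), a receptor kinase of the BMP family. Like LDHA, both were highest on the LC array of cow 1 and lowest on the HC array of cow 3. The genes with the highest r to LDHB were LOC281806 (0.95), INTS10 (0.95), a subunit of the Integrator complex, and PNKD (0.94). Each was lowest on the HC array of cow 2, as was LDHB. For diet, the smallest unadjusted limma p of these 5 genes was 0.338, for INTS10.

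A wider list of 66 genes around the pathway held 41 with a probe, of which 36 passed the background test on every array, 2 on some and 3 on none. For diet, 0 of the 41 reached an unadjusted p under 0.05 in limma, where 3.65% of all probes did, and 0 passed both thresholds. The model without moderation gave 1 (SLC2A8). With the cow as a random block, 2 of the 41 had an unadjusted p under 0.05 (7.35% of all probes), PDP2 and PFKFB1, of which PFKFB1 was above background on 0 arrays. Of the 36, 15 were higher and 21 lower on HC, with log2 fold changes from -0.24 to 0.32 and a median of -0.02. For period, 1 of the 41 was higher and 1 lower at an unadjusted p under 0.05 (12.3% of all probes), and for the interaction 3 were higher and 1 lower (10.2% of all probes). Both thresholds were passed by 0 of the 41 for period (3.86% of all probes) and by 2 for the interaction (8.58%), namely SLC2A8 and PGK2, which was above background on 0 arrays. Among the remaining steps of glycolysis, GPI, the isomerase between hexokinase and phosphofructokinase, was 13.66 ± 0.05 (SD, n = 4) on LC and 13.74 ± 0.10 (SD, n = 4) on HC, a log2 fold change of 0.08 (SE 0.08, limma p = 0.381, exact p = 0.257). GAPDH, the dehydrogenase that feeds PGK1, had a log2 fold change of -0.04 (SE 0.19, limma p = 0.826, exact p = 0.829). This is the brightest of its 3 probes, with an SD of 0.27 between its 2 spots, and the others are not given. PKM, the pyruvate kinase of most tissues, had no probe linked by accession.

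The other lists gave the same picture for diet, and the genes named next were chosen after their values were seen, as those of smallest p in a list among genes above background on every array. Of the isoenzymes and other steps of glycolysis, 12 of 20 had a probe and 11 passed the background test on every array, with 4 higher and 7 lower on HC. Of 9 genes of sugar entry, 6 had a probe. SLC2A8, a glucose transporter of internal membranes, had the smallest p of the 41, with a mean of 9.88 ± 0.25 (SD, n = 4) on LC and 9.63 ± 0.19 (SD, n = 4) on HC and a log2 fold change of -0.24 (SE 0.10, limma p = 0.0563, exact p = 0.229). It was lower on HC in 3 of 4 cows. Of 13 genes of pyruvate dehydrogenase and its control, 7 had a probe. PDP2, a phosphatase that activates the complex, was higher on HC in 4 of 4 cows with a log2 fold change of 0.22 (SE 0.11, limma p = 0.0945, exact p = 0.0857, and p of 0.0364 with the cow as a random block). Of 7 genes of gluconeogenesis, 6 had a probe, and FBP2, a fructose bisphosphatase, had a log2 fold change of 0.25 (SE 0.14, limma p = 0.116, exact p = 0.143). Of 12 genes of the hypoxia-inducible factor, which drives many glycolytic genes when oxygen is low, 6 had a probe. VEGFA, an angiogenic target of the factor, had a log2 fold change of 0.12 (SE 0.11, limma p = 0.326, exact p = 0.314). Of 5 genes that control phosphofructokinase, 4 had a probe and 2 passed the background test on every array, and PFKFB2 had a log2 fold change of 0.05 (SE 0.17, limma p = 0.792, exact p = 0.857).

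**Figure D4:**
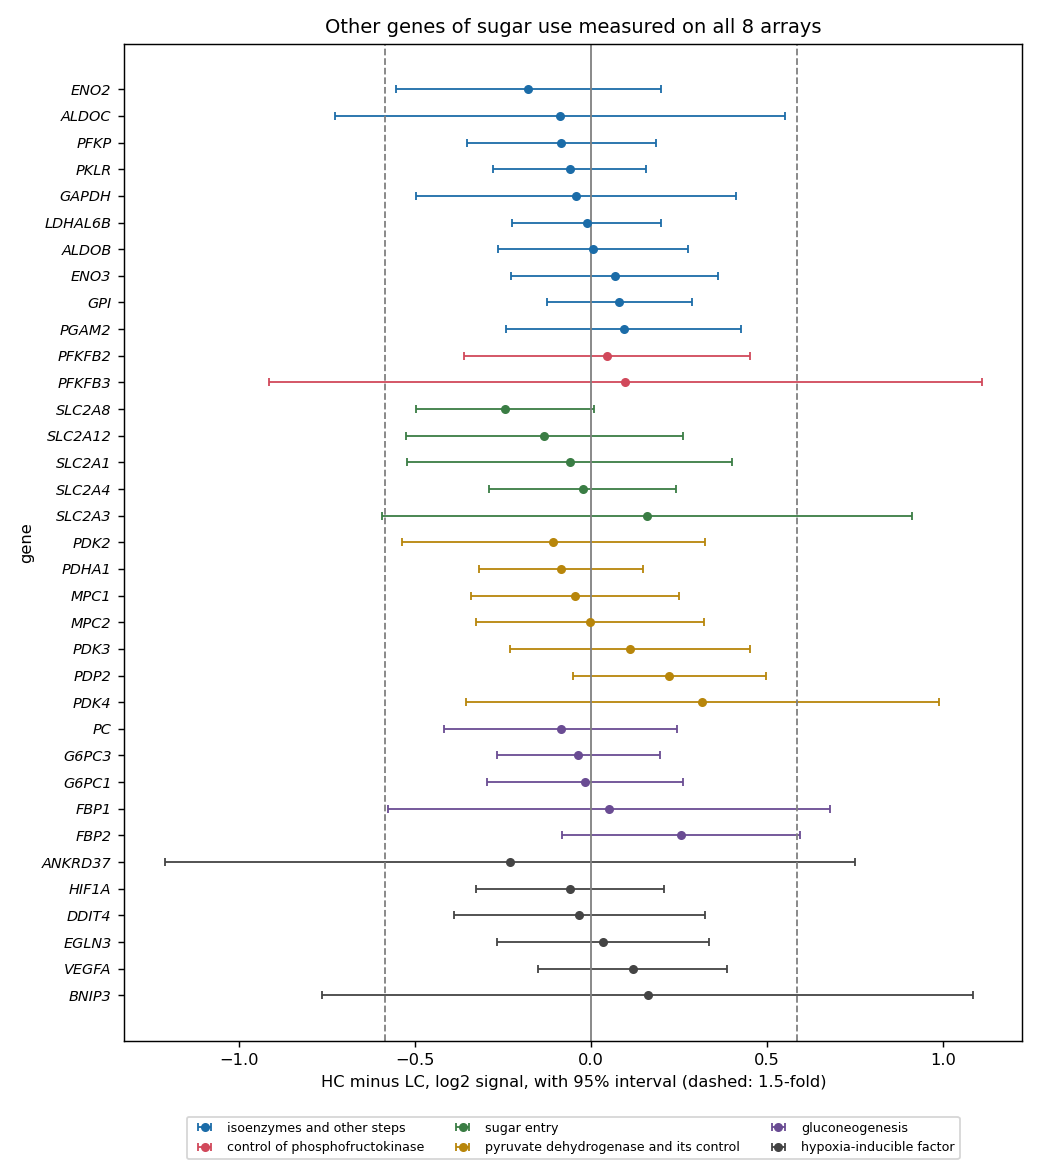
Diet difference as log2 HC minus LC (x axis) for 35 other genes of sugar use (y axis) measured above background on every array, coloured by list. Bars are 95% intervals from limma in the fit without cow, and dashed lines mark 1.5-fold. Points lie between -0.24 and 0.32, and each interval crosses 0.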

How the data were processed

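Scanner output (Feature Extraction 10.7.3.1, per the file headers) was used for every array. As deposited, its intensities were background-subtracted by the software and had not been normalized between arrays. A deposited table of log2 values, quantile-normalized by the authors, served as an alternative. Control spots and the 0 to 13 spots per array marked as outliers were removed, log2 intensities were quantile-normalized between arrays in limma 3.58.1 (R 4.3.3), and spots of a probe were averaged, giving 21475 probes with no filter on dim ones. A probe counted as well above background on an array where each of its spots was. For a gene with several probes, the one brightest on average over the arrays was used. No spot was saturated.

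Diet, period and diet by period were fitted in limma over all probes. Following the study's methods, a probe was called where its fold change reached 1.5 and its unadjusted p lay under 0.05, and Benjamini-Hochberg adjusted values over all probes stand beside it. The residual had 4 degrees of freedom, and both arrays of a cow enter as if independent. The number of arrays limits the precision. The self-test used simulated data. Scripts ran in Python 3.11.15 with pandas 2.3.3 and matplotlib 3.10.9.

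Of 10176 probes with a RefSeq accession, 8297 were named through the reference's gene table (ARS-UCD2.0). The array was annotated on another build, so no positions are given. No sequence tables were used.

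The genes, gene lists and markers were chosen with earlier results of these data known. Named beside the 10 genes are GAPDH, GPI and PKM, any listed gene with an unadjusted p under 0.05 for diet, and the 3 genes most like LDHA and LDHB over the arrays. The same rule for HK2 had no probe. The gene of smallest p in each list was added after its value was seen. Of the genes these rules name, 2 are not reported here.

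The pairing of arrays by cow comes from the labels. Deviations from the diet means correlated at 0.285, 0.298, 0.467 and 0.113 within cows 1 to 4 and at -0.237 to 0.185 between cows (16030 probes), and limma's consensus correlation was 0.384.

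Alternatives were scaling to the 75th percentile, normexp background correction (offset 50, on median spot signals, as mean signals were not used here), the deposited table, a filter on dim probes, other terms, cow blocks, other variance models, leaving out arrays and single periods. Interaction on cow means, and a random cow block with the interaction, were added after the data were seen.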

Additional observations from a re-analysis of the deposited data

Results flagged for a closer look

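Stray arrays were looked for in each diet group of the 8 genes and of 7 other named pathway genes, 30 groups in all, and chance marks about 1 in 20 groups. Among the 8 genes there was 1 such array. The LC array of cow 2 had a PFKL log2 signal of 13.03, above the other LC arrays (12.69 to 12.74), and the gap was 0.871 of the range of the group. The other was the HC array of cow 2 for PFKFB2, a kinase and phosphatase that sets the level of an activator of phosphofructokinase, with a log2 signal of 7.10 against 7.39 to 7.45.

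The diet difference of SLC2A8 differed between periods. It was -0.57 in period 1 and 0.09 in period 2 on the log2 scale, a difference of 0.66 with an unadjusted limma p of 0.0183 (Benjamini-Hochberg adjusted p = 0.419 over all probes). On the mean of each cow its limma p was 0.0330. In this crossover the contrast is the sum of the means of cows 1 and 2 (9.91 and 9.93) minus the sum of those of cows 3 and 4 (9.60 and 9.58), and period and slide cannot be told apart.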

How the results depend on the processing

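The alternative settings numbered 23 for each of the 8 genes, with the exact test counted among them. For diet, 0 of the 8 genes and 0 of the 7 other named genes passed both thresholds under any setting run. Signs were less stable. Within period 2, the log2 fold change was 0.10 for LDHA, 0.12 for PFKL, 0.026 for GAPDH, 0.087 for SLC2A8 and -0.035 for PFKFB2, and within period 1 it was 0.14 for LDHB, -0.22 for HK1, -0.11 for ALDOA and -0.12 for PGK1, each opposite to the fit over both periods. Normexp gave 0.043 for GAPDH. As each array was left out, the log2 fold change ranged from -0.17 to 0.010 for LDHA, from -0.045 to 0.084 for HK1, from -0.086 to 0.072 for PFKL, from -0.0087 to 0.17 for ALDOA, from -0.096 to 0.18 for PGK1, from -0.045 to 0.20 for PGAM1, from -0.19 to 0.11 for GAPDH and from -0.10 to 0.20 for PFKFB2. LDHB (-0.36 to -0.029) and TPI1 (0.023 to 0.11) kept their sign in these runs, as did VEGFA (0.052 to 0.18), FBP2 (0.15 to 0.36) and PDP2 (0.14 to 0.30, and 0.088 with normexp). LDHA minus LDHB ranged from -0.086 (without the HC array of cow 2) to 0.23, and was -0.40 within period 1 and 0.64 within period 2 (exact p = 0.333 for each, the smallest that 2 against 2 arrays allow). The causes were not tested.

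With the cow as a fixed replicate block, LDHB had a limma p of 0.103 with period and 0.0974 without it, and no block changed a call past both thresholds for the 8 genes or the other named genes. With a random block, PDP2 passed from an unadjusted p of 0.0945 to 0.0364, and SLC2A8, with the interaction kept, from 0.0563 to 0.0427. With all arrays, 8.58% of all probes passed both thresholds for the interaction and 0.922% for diet. These shares were not counted with arrays left out. Leaving out 1 array gave 0 to 2 of the 8 genes past both thresholds for the interaction, and 0 to 2 other pathway genes for diet (PCK1, 1.29, and ANKRD37, -0.69, without the HC array of cow 3). The deposited table gave 1, PCK1 (1.37, against 0.53 and an unadjusted p of 0.489 in limma on the scanner signals). PCK1 was well above background on 2 arrays, and its deposited values for the HC array of cow 3 and the LC array of cow 2 equalled the mean of the other 3 values of the diet within 0.005. For the LC array of cow 4 the deposited value was 0.80, against 2.63 on the scanner, and did not equal that mean. With its columns of cows 1 and 2 set beside the arrays they followed, that table never differed from the scanner value by over 0.3 (log2). This covers the 64 values of the 8 genes and does not hold by the column names. HK2 minus HK1, the mean of several probes and a second probe could not be run, since HK2 had no probe and each gene had 1.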
